A study of Mus musculus with 13 samples.

Results

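The gene set described here is 10 immediate targets of the transcription factor CREB, chosen by symbol from 27141 genes in the tables. They are Crem, Nr4a1, Nr4a2, Nr4a3, Per1, Sik1, Fos, Fosb, Junb and Dusp1, and all 10 were among the 19884 genes with enough counts to be tested. They were measured by RNA-seq in damaged hepatocytes (dHeps), cells taken from wild-type C57BL/6 mice with chronic liver injury from carbon tetrachloride (CCl4) and kept for 16 days in serum-free Hepatocyte Maintenance Medium. The control group had the solvent DMSO. The 5C group had the ROCK inhibitor GSK429286A, the protein kinase D inhibitor CID755673, the AMPK activator ETC-1002, the adenylate cyclase activator forskolin and the plant glycoside Salidroside. The groups 5C-G, 5C-C, 5C-E, 5C-F and 5C-S had the same cocktail without GSK429286A, CID755673, ETC-1002, forskolin or Salidroside, respectively. Each group had 2 libraries, here called A and B, except 5C-S with 1, so that forskolin was absent from 4 libraries (DMSO and 5C-F) and present in 9. All groups therefore came from injured livers and from cultured cells that were not sorted after perfusion, and freshly isolated or uninjured hepatocytes were not part of these libraries.

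Forskolin raises cyclic AMP (cAMP), which releases the catalytic subunits of protein kinase A (PKA). PKA phosphorylates CREB, and CREB bound at the cAMP response element (CRE) then starts transcription of a first set of genes without new protein synthesis. Transcripts of this set typically appear soon after a stimulus and decline again while it lasts, in part because products of the set act as brakes. In the liver the same route carries the fasting signal of glucagon. The labels give a single time, 16 days, and the interval between the last change of medium and harvest is not given in the sources used here. The libraries thus hold the level of these genes late in culture and not their first response.

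The CRE is the palindrome TGACGTCA, and its half-site is TGACG, which reads CGTCA on the opposite strand. Both were searched in RefSeq promoter windows of genome build GRCm39, from 250 bases before to 50 bases after a start site. Of the 10 genes, 8 had such windows, 9 windows in all, because Per1 had 2; Crem and Sik1 had none. A half-site on either strand was in 9 of the 9 windows, against 20.8% of 32851 windows of all genes. At least 3 half-sites were in 4 windows, those of Nr4a1, Nr4a2, Nr4a3 and Dusp1, against 1.03% of all windows, and the full palindrome, which counts as 2 overlapping half-sites, was in that of Dusp1, against 1.79%. The letters TATAAA on the sense strand were in the windows of Fos and Junb (8.32% of all windows), and the CArG box, the element of serum response factor, was in none (1.63%). These are matches of letters in a fixed window and show no binding. Sites more than 250 bases before a start were not searched, so an absence holds for the window only. The genes were chosen as targets of CREB, so an excess of its element over all windows came with that choice and is no test. For 7 of these genes a stretch that holds half-sites outside their own exons is given below, 2 for Fos, from 5′ to 3′ on the strand of each gene, with the half-sites and the palindrome in capitals, because they are what these genes share outside their expression values. Stretches that lie in annotated exons of the gene, wholly or in part, are not printed, which leaves out both of Nr4a2 and 1 each of Nr4a1, Nr4a3 and Per1.
Dusp1, chr17:26727567-26727652, minus strand: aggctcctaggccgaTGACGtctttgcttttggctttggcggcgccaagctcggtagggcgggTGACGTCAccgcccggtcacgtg
Nr4a3, chr4:48045059-48045119, plus strand: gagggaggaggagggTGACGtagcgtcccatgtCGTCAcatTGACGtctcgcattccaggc
Nr4a1, chr15:101164479-101164533, plus strand: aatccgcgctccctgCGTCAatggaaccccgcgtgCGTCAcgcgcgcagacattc
Fos, chr12:85520583-85520617, plus strand: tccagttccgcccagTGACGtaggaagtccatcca
Fos, chr12:85520520-85520554, plus strand: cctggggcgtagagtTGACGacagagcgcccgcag
Fosb, chr7:19044011-19044045, minus strand: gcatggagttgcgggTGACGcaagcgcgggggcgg
Junb, chr8:85705464-85705498, minus strand: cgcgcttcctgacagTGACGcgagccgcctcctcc
Per1, chr11:68990831-68990865, plus strand: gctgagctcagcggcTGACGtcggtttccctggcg
The half-site nearest the start of Fos began 66 bases before it and that of Fosb 60 bases before it. In the Dusp1 window the palindrome began 143 bases before the start and a further half-site 191 bases before it.

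Total counts ran from 30195867 to 45491932 per library. Several facts of the libraries move with the groups and stand beside the results that follow. The summed FPKM of 10 macrophage markers was 5140 to 5205 in DMSO, 549 to 637 in 5C, 5190 to 7353 in 5C-G, 1037 to 1734 in 5C-C, 740 to 876 in 5C-E, 1746 to 2087 in 5C-F and 655 in 5C-S, and that of 10 hepatocyte markers ran from 6216 in a 5C-E library to 28358 in a 5C-F library. Of the other marker lists, those of stellate cells and fibroblasts summed to 799 to 1771 FPKM, cholangiocytes to 1462 to 3436, liver endothelial cells to 41.2 to 109, and neutrophils and lymphocytes to at most 5.04 and 1.01. The endothelial markers Pecam1 and Cdh5 were at 0 in 5C and in 5C-F. Differences within a pair of libraries followed the GC content of the genes, with a rank correlation across 12935 genes of 0.54 in 5C-F, 0.55 in 5C-E, 0.43 in 5C-G and 0.29 in 5C-C, but of -0.04 in DMSO and 0.04 in 5C. The labels do not say whether a pair came from separate mice or cultures. The paper states that its n counts separate biological replicates, without saying for these libraries whether they are mice or cultures. The p-values thus measure the spread between libraries only. In whole cultures fewer cells of a type and less RNA per cell cannot be told apart.

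**Figure D1:**
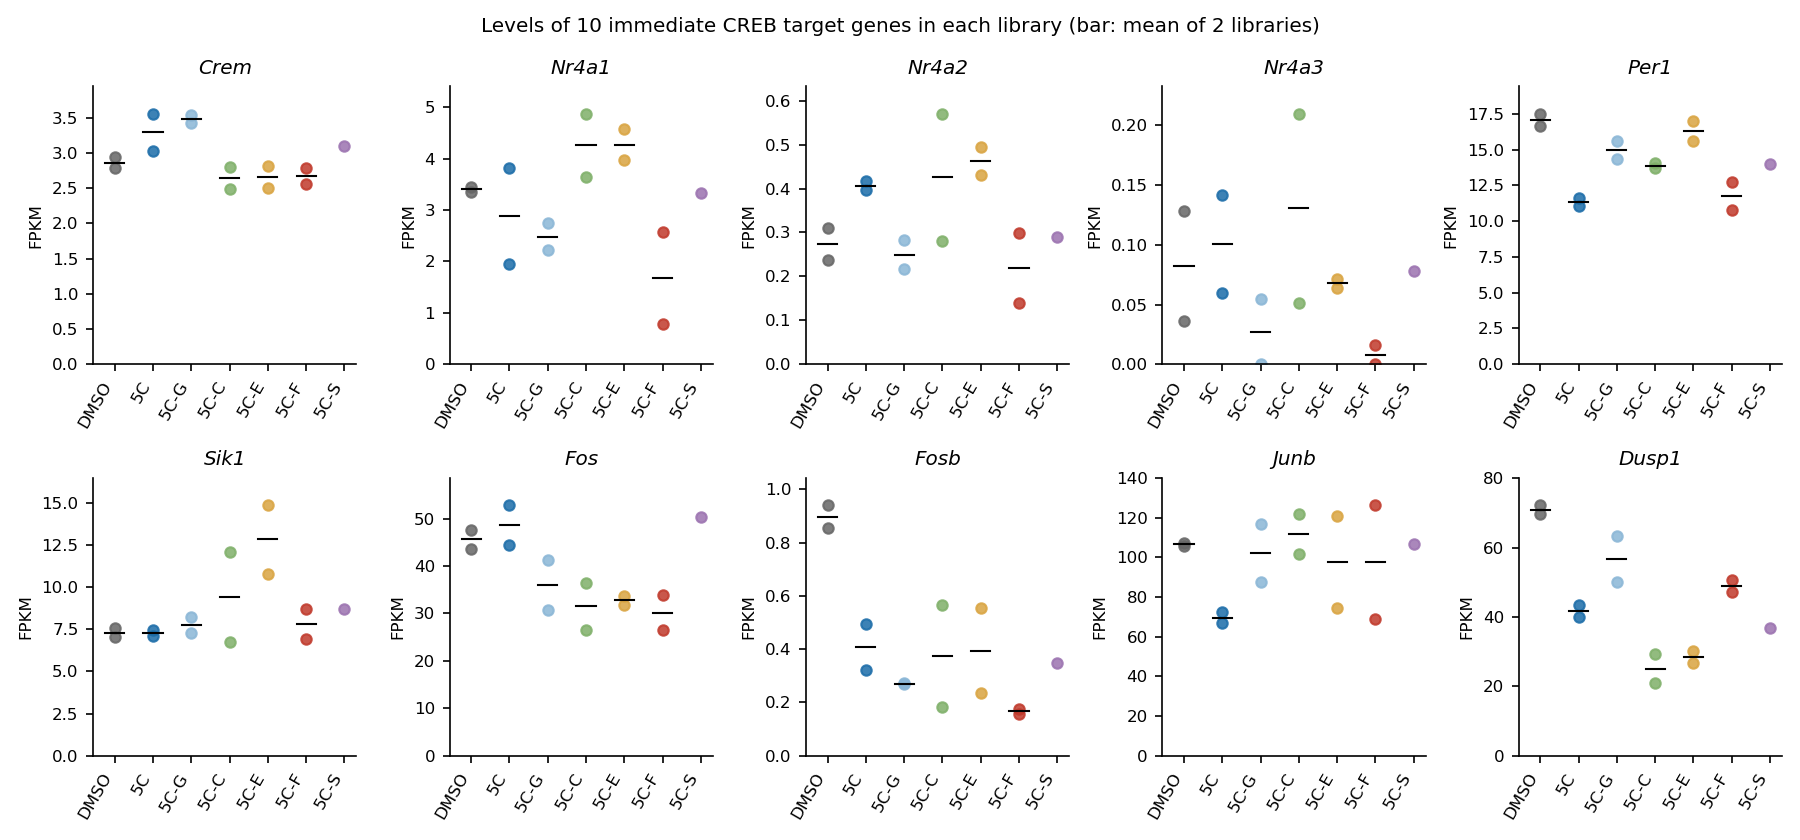
FPKM (linear axis from 0) of each of the 10 genes in the 13 libraries, with a panel per gene, groups on the horizontal axis, a point per library and a bar at the mean of each pair. Crem stays between 2.48 and 3.56 FPKM throughout, Dusp1 is highest in DMSO (69.6 and 72.2) and lowest in 5C-C (21.0 and 29.3), and the points of Nr4a1 in 5C-F lie at 0.780 and 2.58.

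Leaving forskolin out of the cocktail was tested first. With a call defined as an adjusted p under 0.05 in edgeR's quasi-likelihood test, with Benjamini-Hochberg adjustment over all genes, and a log2 fold change beyond 1, 0 of 10 were called in 5C-F relative to 5C, where 4.84% of all genes were. At an unadjusted p under 0.05 there were 4, DESeq2 called 0 and limma called 0. Without the fold threshold 1 gene passed, Fos, which was lower in 5C-F, against 10.7% of all genes in either direction and 4.98% in the lower one. The median log2 fold change of the 10 genes was -0.39, beside -0.01 over all genes tested. Macrophage markers were higher in 5C-F in this comparison, 9 of 10 being called, with a median log2 fold change of 1.86, and hepatocyte markers had a median of 0.71, with Ttr and Apoa1 called higher. The part of either in the values was not tested. Both counts are near the share of all genes and thus single out nothing about the set, so the levels and the intervals of each gene carry the result, and they are given by role.

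Crem encodes the CREB relative CREM, and its inducible short form ICER represses CRE-driven genes. The tables count the gene as a whole and do not separate ICER. Crem was at 2.79 and 2.94 FPKM in DMSO, 3.56 and 3.03 in 5C, 3.43 and 3.54 in 5C-G, 2.48 and 2.81 in 5C-C, 2.82 and 2.50 in 5C-E, 2.79 and 2.56 in 5C-F and 3.10 in 5C-S. This was the narrowest range of the 10 genes, with the highest library at 1.43 times the lowest. In 5C-F relative to 5C the log2 fold change was -0.20 (95% interval -0.64 to 0.24, adjusted p = 0.593 in edgeR), and relative to DMSO 5C gave 0.13 (-0.32 to 0.57). The intervals exclude a change of 2-fold in either direction in both comparisons. Exons of Crem overlap those of Gm6225 on the opposite strand, and reads of the 2 genes cannot be told apart with a library kit that does not mark strand.

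Nr4a1, Nr4a2 and Nr4a3 encode orphan nuclear receptors that bind DNA without a known ligand and, in hepatocytes, take part in the fasting response of glucose production. Nr4a1 (chromosome 15, 101151980 to 101172681, plus strand) was at 3.34 and 3.46 FPKM in DMSO, 3.82 and 1.95 in 5C, 2.74 and 2.22 in 5C-G, 4.87 and 3.64 in 5C-C, 4.57 and 3.96 in 5C-E, 0.780 and 2.58 in 5C-F and 3.32 in 5C-S. The 4 libraries of 5C-C and 5C-E, with 5C A, were the 5 highest, and 5C-F A stood below all others. The log2 fold change in 5C-F relative to 5C was -0.70 (95% interval -1.53 to 0.14, adjusted p = 0.281 in edgeR).

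Nr4a2 (chromosome 2, 56996842 to 57014331, minus strand) was lower throughout, at 0.310 and 0.237 FPKM in DMSO, 0.396 and 0.417 in 5C, 0.283 and 0.216 in 5C-G, 0.570 and 0.281 in 5C-C, 0.494 and 0.430 in 5C-E, 0.140 and 0.299 in 5C-F and 0.289 in 5C-S. Both 5C-F libraries lay below both 5C libraries, with a log2 fold change of -0.80 and an interval that reached from -2.03 to 0.43 (adjusted p = 0.412 in edgeR). Nr4a3 (chromosome 4, 48045153 to 48086447, plus strand) was near the limit of detection. Its counts were 8 and 24 in DMSO, 12 and 26 in 5C, 0 and 12 in 5C-G, 38 and 14 in 5C-C, 14 and 14 in 5C-E, 0 and 4 in 5C-F and 16 in 5C-S. A count of 0 allows up to 3 counts, and no fold change is given for this gene.

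The mean of 5C-F was the lowest of the 7 groups for Nr4a1, Nr4a2 and Nr4a3 alike, but the libraries behind the comparison differed. On the log2 scale 5C-F B exceeded 5C-F A by 1.62 for Nr4a1 and 0.95 for Nr4a2, and Nr4a3 had counts of 0 in A and 4 in B. After correction of each library for GC content and gene length the gaps of Nr4a1 and Nr4a2 were 1.31 and 0.93. Without 5C-F B, Nr4a1 was called lower relative to 5C, at -1.74 (adjusted p = 0.0244 in edgeR), and without 5C-F A its log2 fold change was -0.10. It was -0.15 without 5C A and -1.08 without 5C B, the 5C libraries themselves differing by 0.92. With all 4 libraries and the correction it was -1.07 (adjusted p = 0.0714). The order of 5C-F and its neighbour 5C-G is within their spread, since the ranges of the groups overlapped for all 3 genes.

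Per1 (chromosome 11, 68986035 to 69002300, plus strand) encodes a repressor of the circadian clock that cAMP also induces. It was at 17.5 and 16.6 FPKM in DMSO, 11.6 and 11.0 in 5C, 14.3 and 15.6 in 5C-G, 14.0 and 13.7 in 5C-C, 15.6 and 17.0 in 5C-E, 10.8 and 12.7 in 5C-F and 14.0 in 5C-S. Both 5C and 5C-F lay below all other groups, and these 2 groups overlapped each other. The log2 fold change in 5C-F relative to 5C was 0.15 (95% interval -0.20 to 0.50, adjusted p = 0.624 in edgeR), which excludes a 2-fold change.

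Sik1 (chromosome 17, 32058850 to 32074818, minus strand) encodes a salt-inducible kinase that phosphorylates the CRTC coactivators of CREB and keeps them out of the nucleus. Its level was 7.58 and 7.01 FPKM in DMSO, 7.09 and 7.43 in 5C, 8.20 and 7.30 in 5C-G, 12.1 and 6.72 in 5C-C, 10.8 and 14.8 in 5C-E, 6.95 and 8.69 in 5C-F and 8.70 in 5C-S. DMSO, 5C, 5C-G and 5C-F overlapped, while 5C-E was higher than these groups in both libraries. In 5C-F relative to 5C the log2 fold change was 0.20 (95% interval -0.29 to 0.69, adjusted p = 0.627 in edgeR).

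Fos, Fosb and Junb encode subunits of the dimeric factor AP-1, which growth factors, stress and cAMP all induce. Fos (chromosome 12, 85520658 to 85524047, plus strand) was at 43.6 and 47.6 FPKM in DMSO, 52.8 and 44.4 in 5C, 41.2 and 30.8 in 5C-G, 36.5 and 26.6 in 5C-C, 33.7 and 31.9 in 5C-E, 26.6 and 33.8 in 5C-F and 50.3 in 5C-S. DMSO, 5C and 5C-S formed the upper range, and every library of the 4 other groups lay below every library of these 3. In 5C-F relative to 5C Fos fell by 0.59 on the log2 scale (SE 0.18, 95% interval -0.98 to -0.20, adjusted p = 0.0495 in edgeR).

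That value was just inside the threshold. Over the 14 alternatives the log2 fold change of Fos stayed negative. The adjusted p was above 0.05 with limma on either FPKM scale. Without any 1 of the 4 libraries the log2 fold change ran from -0.73 to -0.46. With a correction for GC content and length the log2 fold change was -0.83 (adjusted p = 0.00610).

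Fosb (chromosome 7, 19036621 to 19043976, minus strand) was far lower, at 0.854 and 0.940 FPKM in DMSO, 0.496 and 0.323 in 5C, 0.269 and 0.272 in 5C-G, 0.566 and 0.183 in 5C-C, 0.554 and 0.235 in 5C-E, 0.157 and 0.175 in 5C-F and 0.347 in 5C-S. DMSO lay above all other libraries and 5C-F below all others. The log2 fold change in 5C-F relative to 5C was -1.20 (95% interval -2.33 to -0.07, adjusted p = 0.166 in edgeR), with counts of 38 and 46 against 104 and 62.

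Junb (chromosome 8, 85701113 to 85705359, minus strand) had the highest FPKM of the set, at 107 and 106 in DMSO, 72.5 and 66.8 in 5C, 117 and 87.6 in 5C-G, 102 and 122 in 5C-C, 74.6 and 121 in 5C-E, 68.8 and 126 in 5C-F and 107 in 5C-S. Both libraries of 5C stood at 72.5 FPKM or below, which held for no other group, and the 2 libraries of 5C-F covered almost the whole range of the gene. The log2 fold change in 5C-F relative to 5C was 0.57 (95% interval 0.06 to 1.09, adjusted p = 0.143 in edgeR), and 0.01 with the correction for GC content and length. Junb has the highest GC content of the set, 62.6% of its exon bases, and its exons overlap those of Prdx2 on the opposite strand.

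Dusp1 (chromosome 17, 26724564 to 26781102, minus strand) encodes the phosphatase MKP-1, which switches off MAP kinases. It was at 72.2 and 69.6 FPKM in DMSO, 40.1 and 43.4 in 5C, 63.2 and 50.2 in 5C-G, 29.3 and 21.0 in 5C-C, 26.6 and 30.1 in 5C-E, 47.1 and 50.8 in 5C-F and 36.7 in 5C-S. Among the 10 genes it gave the clearest order of groups, with DMSO above 5C-G, 5C-G and 5C-F overlapping, then 5C, 5C-S and 5C-E each below the group before it, and 5C-C overlapping 5C-E. In 5C-F relative to 5C its log2 fold change was 0.33 (95% interval -0.04 to 0.69, adjusted p = 0.246 in edgeR), and -0.01 with the correction. Its exons overlap those of Ergic1 on the opposite strand.

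No gene of the set separated the 4 libraries without forskolin from the 9 with it, a pattern that 1.60% of all tested genes showed. The range without forskolin lay inside or across the other for each gene, as for Per1, with 10.8 to 17.5 FPKM without and 11.0 to 17.0 with forskolin. The 5C-F and 5C libraries did not overlap for 6 of 10 genes, beside 55.9% of all tested genes, and 5C and DMSO for 6 of 10, beside 59.3%.

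**Figure D2:**
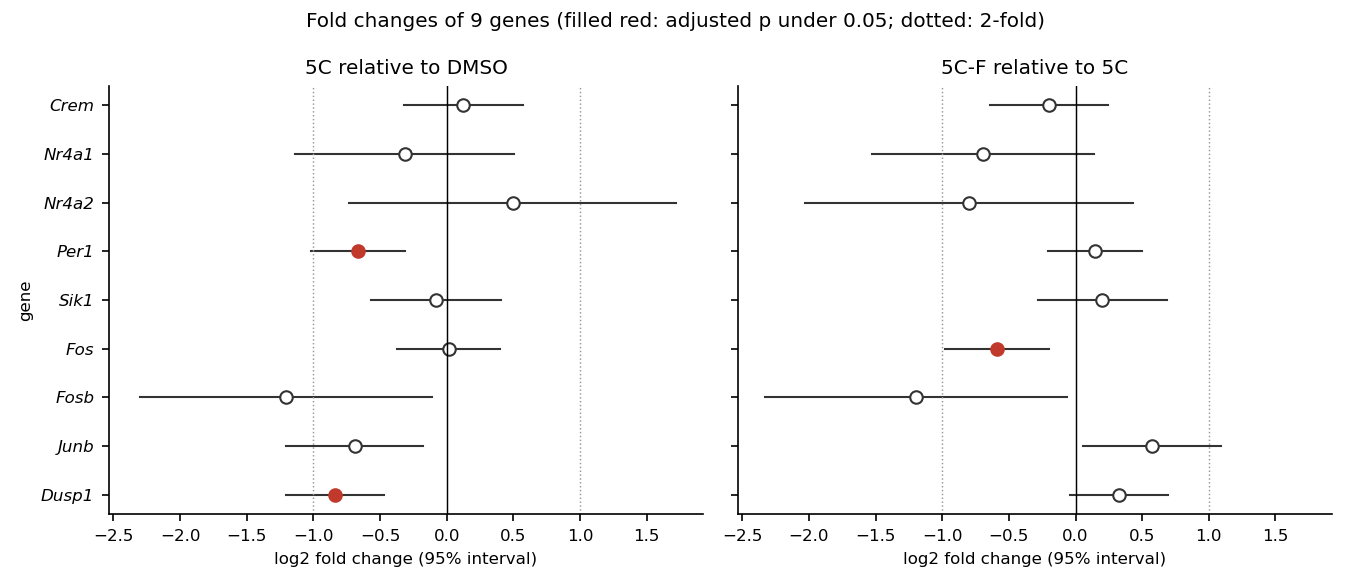
Log2 fold changes (horizontal axis, edgeR) with 95% intervals of 9 genes, Nr4a3 left out for its low counts, in 5C relative to DMSO (left) and in 5C-F relative to 5C (right); filled red points have an adjusted p under 0.05 and dotted lines mark a log2 fold change of 1 in either direction. Per1 (-0.67) and Dusp1 (-0.84) are filled on the left and Fos (-0.59) on the right, and the intervals of Crem and Sik1 include 0 in both panels.

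In 5C relative to DMSO, 2 of the 10 genes fell, Per1 and Dusp1, and neither passed the fold threshold. None of the 10 was thus called, beside 4.55% of all genes, while 4 had an unadjusted p under 0.05 in edgeR, and DESeq2 and limma called 0. Without the fold threshold 6.34% of all genes passed, 4.09% in the lower direction. Dusp1 fell by 0.84 on the log2 scale (SE 0.17, adjusted p = 0.00512 in edgeR), with both 5C libraries below both DMSO libraries, and by 0.72 with the correction for GC content and length (adjusted p = 0.0167). Without DMSO A or without 5C A its adjusted p rose to as much as 0.113. Per1 fell by 0.67 (SE 0.17, adjusted p = 0.0208), and its adjusted p passed 0.05 with the correction (0.0719) and without any 1 of the 4 libraries (up to 0.233).

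Fosb and Junb had values in the same direction that did not pass, with log2 fold changes of -1.21 (adjusted p = 0.232 in edgeR) and -0.69 (adjusted p = 0.122). Nr4a2 was the gene with the largest positive value, 0.50 (95% interval -0.73 to 1.72). Macrophage markers moved with this comparison, 9 of 10 being called lower in 5C, with a median log2 fold change of -3.04, and their part in the values of Dusp1 and Per1 was not tested.

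Relative to DMSO, 5C-F also holds no forskolin, so this comparison shows the other compounds together. Of the 10 genes 1 was called, beside 7.40% of all genes. Fosb was lower in 5C-F, with a log2 fold change of -2.40 (SE 0.55, 95% interval -3.56 to -1.25, adjusted p = 0.00716 in edgeR), from counts of 195 and 183 in DMSO and 38 and 46 in 5C-F. Without 5C-F A the adjusted p was 0.0577, and on log2(FPKM + 1), a scale that compresses low values, limma gave a log2 fold change of -0.70. Fos and Per1 passed without the fold threshold (14.5% of all genes did), at -0.57 (adjusted p = 0.0453) and -0.52 (adjusted p = 0.0461), and both lost this without any 1 of the 4 libraries. With the correction for GC content and length Per1 was at -0.20 (adjusted p = 0.387) and Fos at -0.77 (adjusted p = 0.00578). Dusp1 had -0.51 (adjusted p = 0.0576, or 0.0227 in DESeq2), and -0.73 with the correction (adjusted p = 0.0110). Nr4a1 had -1.01 (adjusted p = 0.0989), with -0.42 without 5C-F A, -2.05 without 5C-F B and -1.21 with the correction (adjusted p = 0.0333). Of the 10 genes 9 had a negative value, with a median of -0.51, beside -0.01 over all genes. Macrophage markers were lower in 5C-F than in DMSO, 7 of 10 being called, with a median of -1.17. Cholangiocyte markers had a median of 1.60, with 5 of 8 called higher, and hepatocyte markers one of 0.64, with 1 of 10 called higher. Liver endothelial markers had a median of -1.28, with 2 of 9 called lower. The part of any of these lists in the values of the set was not tested.

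**Figure D3:**
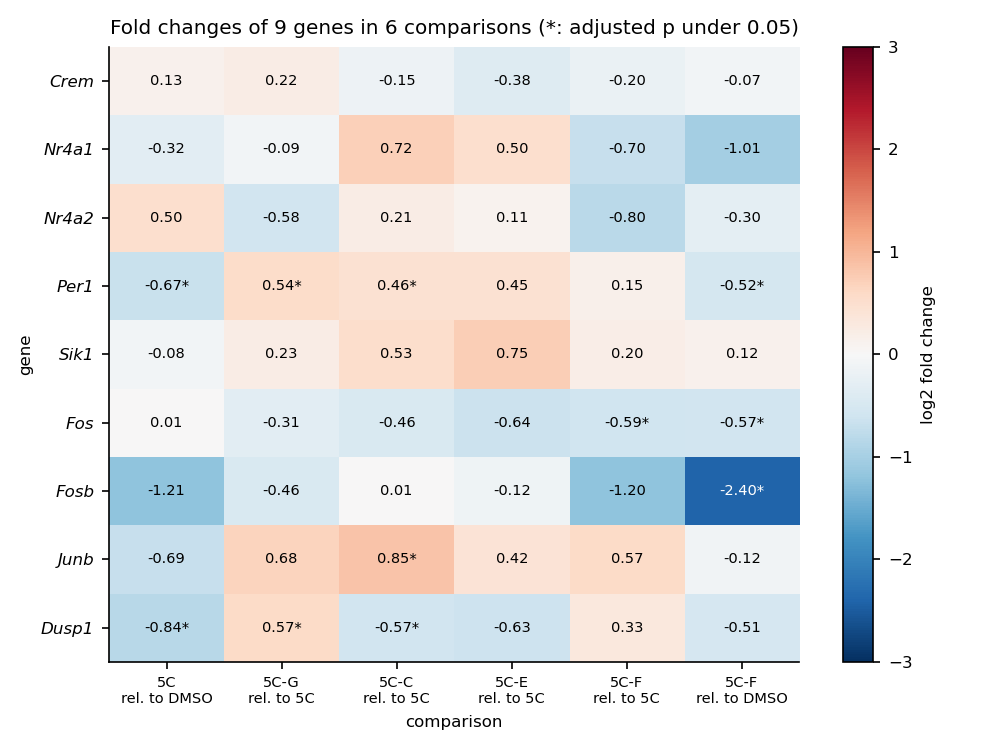
Log2 fold changes (colour and printed value, edgeR) of 9 genes, rows, in 6 comparisons, columns; an asterisk marks an adjusted p under 0.05. Per1 reads -0.67 in 5C relative to DMSO and 0.54, 0.46 and 0.45 where GSK429286A, CID755673 or ETC-1002 is left out, Dusp1 reads 0.57, -0.57 and -0.63 there, and all columns but the last share the 5C libraries.

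Leaving out another compound gave a different set of values, with the 5C libraries shared by all of these comparisons. In 5C-G relative to 5C, where the ROCK inhibitor was absent, 0 of 10 genes were called, beside 13.1% of all genes, with 3 at an unadjusted p under 0.05 in edgeR and 0 called by DESeq2 or limma. Without the fold threshold 2 rose, beside 25.6% of all genes that passed in either direction and 14.0% in the higher one. Dusp1 rose by 0.57 (adjusted p = 0.0226) and Per1 by 0.54 (adjusted p = 0.0239), and Junb had 0.68 (adjusted p = 0.0503). With the correction for GC content and length Dusp1 was at 0.14 (adjusted p = 0.662) and Junb at -0.06. Of the alternatives for Per1, 7 of 13 had an adjusted p above 0.05, up to 0.192, among them the omission of 5C A, 5C B or 5C-G B. Macrophage markers, 9 of 10 called, were higher in 5C-G by a median of 3.47 on the log2 scale. Cholangiocyte markers had a median of -1.64, with 4 of 8 called lower. Hepatocyte markers had one of -0.87, with 4 of 10 called lower and 1 higher. The part of any of these lists in the values of the set was not tested.

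In 5C-C relative to 5C, where the protein kinase D inhibitor was absent, 0 of 10 genes were called in the comparison that changed most genes of the table (20.2%), with 5 at an unadjusted p under 0.05 in edgeR and 0 called by DESeq2 or limma. Without the fold threshold 3 passed, beside 35.8% of all genes. Junb rose by 0.85 (adjusted p = 0.0118) and Per1 by 0.46 (adjusted p = 0.0418), while Dusp1 fell by 0.57 (adjusted p = 0.0158). The direction of Junb turned with the correction for GC content and length, to -0.25 (adjusted p = 0.357), and Dusp1 was then called, at -1.16 (adjusted p = 0.000236). Without 5C B or without 5C-C B, Dusp1 had an adjusted p of up to 0.175. Per1 lost its adjusted p when any 1 of the 4 libraries was left out (up to 0.197). Sik1 had a log2 fold change of 0.53 (adjusted p = 0.0860) and Fos of -0.46 (adjusted p = 0.0600). With the correction these were 0.92 (adjusted p = 0.00222) and -0.80 (adjusted p = 0.00295), and without 5C-C A Sik1 was at 0.098. Macrophage markers had a median log2 fold change of 1.48 in this comparison, 5 of 10 being called higher, and hepatocyte markers one of -0.52, 3 of 10 being called lower, and the part of either was not tested.

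In 5C-E relative to 5C, where the AMPK activator was absent, 0 of 10 genes were called, beside 1.96% of all genes, and 0 passed without the fold threshold, beside 2.94%. In edgeR 4 had an unadjusted p under 0.05, and without the fold threshold DESeq2 passed 3 and limma 0. The 4 were Sik1, at 0.75 (95% interval 0.26 to 1.24, adjusted p = 0.103), Fos at -0.64 (adjusted p = 0.0781), Dusp1 at -0.63 (adjusted p = 0.0627) and Per1 at 0.45 (adjusted p = 0.190). Sik1 was higher in both 5C-E libraries than in both 5C libraries, and Fos and Dusp1 were lower in both. With the correction for GC content and length Fos was at -0.65 (adjusted p = 0.0437) and Dusp1 at -0.75 (adjusted p = 0.0238), while Sik1 was at 0.50 and Per1 at 0.10. Hepatocyte markers moved with this comparison, 4 of 10 being called lower, with a median of -1.07, and their part in the values was not tested.

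The single 5C-S library allows no test. Its FPKM lay within the range of the 5C libraries for Crem, Nr4a1, Nr4a3, Fos and Fosb, below it for Nr4a2 (0.289) and Dusp1 (36.7), and above it for Per1 (14.0), Sik1 (8.70) and Junb (107). Junb was the farthest from 5C, by 0.60 on the log2 scale of mean FPKM.

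Set against the mean of the 4 groups with forskolin and 2 libraries each, 5C-F had 0 of 10 genes called, beside 5.22% of all genes, with 3 at an unadjusted p under 0.05 in edgeR and 0 called by DESeq2 or limma. Without the fold threshold Dusp1 was higher in 5C-F (10.8% of all genes passed, 6.24% in the higher direction), by 0.49 (SE 0.13, adjusted p = 0.0236), with an adjusted p between 0.00297 and 0.148 over 19 alternatives. Its adjusted p was above 0.05 with scaling by total counts only and with limma on either FPKM scale. Over the omissions of 1 library its log2 fold change ran from 0.44 to 0.55. Nr4a1 had -0.98 (95% interval -1.68 to -0.28, adjusted p = 0.0705) and Fosb -1.06 (adjusted p = 0.166). The value of Nr4a1 was -0.39 without 5C-F A and -2.02 without 5C-F B, and with the correction it was called, at -1.03 (adjusted p = 0.0306). In this comparison 8 of 10 genes had a negative value, with a median of -0.23 beside -0.01 over all genes. Hepatocyte markers were higher in 5C-F here, 7 of 10 being called, with a median log2 fold change of 1.46. Cholangiocyte markers had a median of 1.13, with 3 of 8 called higher, and the part of either list in the values was not tested.

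The groups that each lacked 1 compound were also set against each other. These comparisons share libraries, those of 5C-G for both calls of Dusp1 and those of 5C-F for both of Nr4a1. Of the 10 genes 1 was called in 5C-C relative to 5C-G (7.36% of all genes) and in 5C-E relative to 5C-G (9.31%), which was Dusp1 in both, lower where CID755673 or ETC-1002 was missing. In 5C-F relative to 5C-C (10.2%) and to 5C-E (8.74%) 1 was called as well, which was Nr4a1 in both, lower in 5C-F. Without the fold threshold Dusp1 also passed in both. It was higher in 5C-F, by 0.90 relative to 5C-C (adjusted p = 0.00180 in edgeR) and by 0.96 relative to 5C-E (adjusted p = 0.00110). In 5C-E relative to 5C-C (13.7%) and 5C-F relative to 5C-G (8.03%) 0 were called in edgeR, with 0 and 1 at an unadjusted p under 0.05.

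The 10 genes did not move as a block. Over the 13 libraries, which share the groups and differ in depth and GC slope, Pearson's r of log2 CPM for the 45 pairs of genes ran from -0.69 to 0.74, the latter for Nr4a1 and Nr4a2, with a median of 0.23 beside 0.0034 over all pairs of tested genes. The gene with the pattern most like each of 8 of them, by r over the 13 libraries, was C230038L03Rik for Sik1 (0.94), Liph for Nr4a2 (0.92), Ebf4 for Nr4a1 (0.92), Rnf5 for Junb (0.91), Gata5os for Fos (0.89), Cds1 for Fosb (0.85), Gm45187 for Nr4a3 (0.85) and Tusc2 for Crem (0.83). C230038L03Rik, Gata5os and Gm45187 were at 0 in some libraries, and Liph was at 0.0235 to 0.327 FPKM. Each r is the highest among the other tested genes, so a high value comes in part with that choice.

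In 5C-F relative to 5C 4.84% of all genes were called. Among 24 other immediate early genes, which serum, stress and kinase signals induce, 1 was called higher and 0 lower there. It was Klf2, an endothelial and macrophage regulator, at 1.20 (adjusted p = 0.0139 in edgeR) and 0.70 with the correction for GC content and length. Their median log2 fold change was -0.13. In 5C relative to DMSO, where 4.55% of all genes were called, 3 were called lower, Klf4 at -1.91, Klf2 at -1.11 and Jun at -1.06, and 21 were not called. With the correction Klf2 and Jun were at -0.95 and -0.89, inside the fold threshold. In 5C-G relative to 5C, where 13.1% of all genes were called, 5 were called higher, among them Atf3 at 1.62 and Klf4 at 1.60, with a list median of 0.65. Of the others, Klf2 was at 1.12 and at 0.38 with the correction (adjusted p = 0.189), and Jun at 1.05 and 0.78. In 5C-C relative to 5C Egr1, Egr2, Egr3 and Arc were called lower and Klf2 higher, beside 20.2% of all genes. Egr1 was at -1.73 and Klf2 at 1.41, or 0.35 with the correction (adjusted p = 0.210). Egr3 was at 0.0676 and 0.207 FPKM in 5C and 0 in 5C-C, and Arc at 0.29 and 0.31 against 0 and 0.108. The calls of Egr3 and Arc thus rest on values near the limit of detection. In 5C-E relative to 5C Egr1 alone was called, at -1.12, beside 1.96% of all genes. In 5C-F relative to DMSO, where 7.40% of all genes were called, 4 were called lower, Egr3, Klf4, Cyr61 and Arc. Of these Egr3 was again low, at 0.386 and 0.639 FPKM in DMSO and 0 and 0.0324 in 5C-F. Arc was at 1.44 and 1.69 FPKM against 0.203 and 0.311. Macrophage markers had median log2 fold changes of -3.04 in 5C and -1.17 in 5C-F relative to DMSO, and of 1.86 in 5C-F, 3.47 in 5C-G and 1.48 in 5C-C relative to 5C. Their part in these calls was not tested.

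Of 16 slower or metabolic CREB targets, 15 were found by symbol. In 5C-F relative to 5C, Igfbp1, which binds insulin-like growth factors and rises in fasting liver, was called higher (1.10, adjusted p = 0.00248 in edgeR, or 0.83 with the correction), and Pde4b, a phosphodiesterase that degrades cAMP, was called lower (-1.40, adjusted p = 0.0117), beside 4.84% of all genes called. The other 13 were not called, and the list median was -0.04. Limma called 0 of the 15, and edgeR called 0 without 5C B and 1 without either 5C-F library or with the correction. Relative to the mean of the 4 groups with forskolin, where 5.22% of all genes were called, 5C-F had 5 called higher (G6pc, Ppargc1a, Tat, Gpt2 and Igfbp1) and 2 lower (Pde4b and Pde10a, both at -1.83). G6pc had an adjusted p of 0.0532 with the correction. Hepatocyte markers were also higher here, and their part in these values was not tested. Tat, the tyrosine aminotransferase, was called lower in 5C relative to DMSO (-1.32), and again lower in 5C-G (-1.20), 5C-C (-1.22) and 5C-E (-1.42) relative to 5C. Hepatocyte markers had a median of -0.04 with 0 of 10 called in 5C relative to DMSO. In the 3 comparisons with 5C they had medians of -0.87, -0.52 and -1.07, with 4, 3 and 4 of 10 called lower and 1 called higher in 5C-G, and their part in the values of Tat was not tested.

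The 15 genes of CREB, its coactivators and PKA held 0 calls in 5C-F relative to 5C in edgeR, beside 4.84% of all genes. Their median was -0.21. In 5C relative to DMSO Pkia, an inhibitor of PKA, was called higher at 1.10 (adjusted p = 0.0244 in edgeR), beside 4.55% of all genes. It was called lower in 5C-G relative to 5C at -1.08, beside 13.1% of all genes. With the correction the values of Pkia were 0.94 and -0.58, both inside the fold threshold. In 5C-C relative to 5C Creb1, Atf1, Ep300 and Prkacb were called lower, beside 20.2% of all genes. With the correction for GC content and length Creb1 went from -1.06 to 0.13, Ep300 from -1.20 to -0.58 and Prkacb from -1.09 to -0.58, which leaves Atf1 beyond the fold threshold, at -1.08. Of the 12 relatives of Per1, Sik1 and Dusp1, the phosphatase gene Dusp4 alone was called in 5C-F relative to 5C. It was lower (-1.35, adjusted p = 0.0170 in edgeR), beside 4.84% of all genes called there. In 5C-C relative to 5C, where 20.2% of all genes were called, 6 of the 12 were called lower, Per2, Per3, Sik2, Dusp4, Dusp6 and Dusp16 (-1.17, or -0.69 with the correction), while Per1 was at 0.46 and Sik1 at 0.53.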

How the data were processed

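RNA-seq libraries from 13 samples were grouped by their labels. The authors sequenced paired-end reads on a NovaSeq instrument and mapped them to GRCm39, and the submitters' processing notes name featureCounts, Subread and DESeq2. Aligner, annotation release and strand setting are not given in the sources used here. The deposited counts were whole numbers per gene, not normalized. The authors also deposited FPKM, which are counts per gene length and library total. The floor of 3 counts covers counting error alone, since molecules were not tagged before amplification.

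Counts were tested with edgeR 4.0.16 (R 4.3.3) by quasi-likelihood, with TMM factors, filterByExpr (minimum count 10), all 13 libraries in 1 fit with 6 residual degrees of freedom, and Benjamini-Hochberg adjustment over 19884 genes. Calls needed an adjusted p under 0.05 and a log2 fold change beyond 1. The study's DESeq was replaced by this test. The columns name groups but not samples, so the libraries A and B follow column order and pair nothing. The text gives all 10 members in every library, fold changes mainly for members with an unadjusted p under 0.05 (for 5C-F relative to 5C all but Nr4a3), the nearest gene by Pearson's r (not reported here for Per1 and Dusp1), and called genes of the lists (by rule up to 4 with the largest change per comparison, in places all or fewer). Members and lists were chosen with earlier results of these data known. Alternatives were DESeq2 1.42.0, limma 3.58.1 on log2(FPKM + 1) and log2(FPKM + 0.1), other scalings and filters, fits of the compared groups, omission of each library and, chosen after seeing the data, an offset for GC content and length and the omission of both 5C-G libraries. GC content was available for 99.5% of tested genes. The fit was tested on simulated data. Positions and exon overlaps come from GENCODE vM39 on GRCm39, and promoter windows from RefSeq. 0 columns of per-sample values were left unused.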

Additional observations from a re-analysis of the deposited data

Results flagged for a closer look

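For Dusp1 and Nr4a1 the effect of leaving out a compound differed between compounds, by a test of the difference between the 2 groups. Each of these comparisons called 1 of the 10 genes, beside 7.36% of all genes in 5C-C relative to 5C-G, 9.31% in 5C-E relative to 5C-G, 10.2% in 5C-F relative to 5C-C and 8.74% in 5C-F relative to 5C-E, so the counts are near the background. Both calls of Dusp1 rest on the same 5C-G libraries and both of Nr4a1 on the same 5C-F libraries. Dusp1 was lower in 5C-C than in 5C-G by a log2 fold change of -1.14 (adjusted p = 0.000295 in edgeR) and that of 5C-E relative to 5C-G was -1.20 (adjusted p = 0.000193). Both passed an adjusted p of 0.05 under all 13 alternatives, with values from -1.30 to -0.94 and from -1.29 to -0.89. The macrophage markers summed to 5190 to 7353 FPKM in 5C-G, 1037 to 1734 in 5C-C and 740 to 876 in 5C-E, and their part in the difference was not tested.

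Hepatocyte markers summed to 23400 to 28358 FPKM in 5C-F, 9366 to 10721 in 5C-C and 6216 to 7078 in 5C-E. Cholangiocyte markers summed to 3183 to 3436, 1860 to 2122 and 1520 to 1593 FPKM in the same groups. The part of either list in the differences of Nr4a1 was not tested. Nr4a1 was lower in 5C-F than in 5C-C by -1.42 (adjusted p = 0.0194 in edgeR) and lower than in 5C-E by -1.19 (adjusted p = 0.0470). Its 5C-F libraries stood at 0.780 and 2.58 FPKM. Without 5C-F A the values were -0.83 and -0.60, and the adjusted p rose above 0.05 in both. The first difference also lost its adjusted p without 5C-C A and the second without 5C-E A or 5C-E B, and both lost it with limma on either FPKM scale and with only the compared groups in the fit.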

How the results depend on the processing

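The number of the 10 genes called stayed the same in 5C-E relative to 5C under every alternative run. Without the fold threshold it was 2 in 5C relative to DMSO, 1 in 5C-F relative to 5C, 2 with GSK429286A left out, 3 with CID755673 left out, 3 in 5C-F relative to DMSO and 1 in 5C-F relative to the mean of the 4 groups. With only the compared groups in the fit it was 1 in 5C relative to DMSO. With the offset for GC content and length it was 1 in 5C-C, 2 in 5C-F relative to DMSO and 1 in 5C-F relative to the mean, and limma on log2(FPKM + 1) called 0 in 5C-F relative to DMSO. Leaving out each library in turn gave 0 to 1 in 5C-F relative to 5C (1 without 5C-F B), 0 to 1 in 5C-C (1 without 5C-C A), 0 to 2 in 5C-F relative to DMSO (0 without 5C-F A, 2 without 5C-F B) and 0 to 1 in 5C-F relative to the mean (1 without 5C-F B). Among the fold changes of members with an unadjusted p under 0.05, all of those in 5C-F relative to 5C and the 4 called between removal groups, the sign turned with the offset for Dusp1 in 5C-F relative to 5C (-0.0075) and for Junb in 5C-G (-0.060) and 5C-C (-0.25) relative to 5C; the cause was not tested. Smaller values outside this set turned elsewhere, as for Nr4a1 in 5C relative to DMSO, from -0.32 to as much as 0.080 over the alternatives. No paired analysis was possible because the running numbers of the library columns could not be matched to the replicate numbers in the labels, which DMSO and 5C do not share. With 2 libraries per group, intervals as wide as that of Nr4a2 leave a 2-fold change undetectable.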
